A study of Mus musculus with 8 samples.

Results

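The genes described here encode the mitochondrial respiratory chain and ATP synthase in mouse naive CD4 T cells. They were chosen by symbol: every gene read by a transcript cluster with a single gene symbol that begins with Nduf, Uqcr, Cox4 to Cox8 or Atp5, or is Sdha, Sdhb, Sdhc or Sdhd, leaving out pseudogene symbols. A transcript cluster is the group of probes that the array reads as 1 unit. Of 19938 genes tested, 89 met this rule, read by 114 clusters, and the brightest cluster stood for each gene. They comprised 36 complex I genes, 7 complex I assembly factors (Ndufaf1 to Ndufaf7), 4 complex II genes, 8 complex III genes, 17 complex IV genes and 17 complex V genes. Ndufb1, Ndufb4, Cox7c and Ndufaf8 were not among the single-symbol clusters and are not analysed here as members.

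Complexes I and II pass electrons from NADH and succinate to ubiquinone, complex III passes them on to cytochrome c, and complex IV hands them to oxygen. Complexes I, III and IV pump protons across the inner mitochondrial membrane, and complex V, the ATP synthase, uses that gradient to make ATP. Most subunits are encoded in the nucleus and a few in mitochondrial DNA. A resting naive T cell makes most of its ATP in this way, and after activation it adds mitochondrial mass as it grows and divides.

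The 8 arrays carried 1 RNA sample each, 4 labelled Bcl6 cKO and 4 labelled wild type (WT). Bcl6 cKO cells came from mice with a T cell-specific conditional deletion of Bcl6, a transcriptional repressor best known for directing follicular helper T cells, and WT cells from wild-type mice. Cells of both groups were sorted as naive CD4 T cells and activated through CD3 and CD28 with antibodies for 24 hours, and biotin labelling started from 100 ng of RNA. The Cre driver, the age and sex of the mice and the meaning of the tag Tf0 are not given in the labels. They do not state whether each sample is a mouse of its own, so the p-values reflect only how far these samples scatter, which may be technical.

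Values are log2 signals, and every difference is Bcl6 cKO minus WT. The median signal of all genes lay between 7.57 and 7.64 on the 8 arrays. Bcl6 itself was not lower on the arrays labelled Bcl6 cKO, with 8.74 ± 0.27 in Bcl6 cKO and 8.37 ± 0.20 in WT (mean ± SD, n = 4 each), a difference of 0.37 (limma adjusted p = 0.337). The deleted exons are not stated, so this cluster checks nothing about the labels. Y-linked genes were high on Bcl6 cKO replicate 1 and on WT replicates 1 to 3, and low on Bcl6 cKO replicates 2 to 4 and on WT replicate 4, so sex was unevenly spread over the groups. WT replicate 4 also stood apart in spread: the interquartile range of its deviations from each gene's median was 0.18, against 0.085 to 0.115 on the other 7 arrays. Of 7 CD4 T cell markers 6 were measured and all 6 had differences below 0, with a mean level of 12.41 to 12.54 in Bcl6 cKO, against 12.59 to 12.6 in WT. Of the CD8 pair, Cd8b1 read 10.41 to 10.78 in Bcl6 cKO and 10.90 to 11.12 in WT without overlap, a difference of -0.47 (limma adjusted p = 0.0541), and Cd8a had a difference of -0.0225. The mean levels of the B cell, myeloid, NK and erythroid or platelet lists overlapped between the groups, at 5.53 to 6.66. Within them the myeloid marker Fcgr3 read 6.78 to 6.97 in Bcl6 cKO and 7.06 to 7.36 in WT, a difference of -0.32 (limma adjusted p = 0.131), and the NK marker Klrb1c had a difference of -0.13 with groups that did not overlap (limma adjusted p = 0.350). The part of these markers in the results below was not tested.

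Ndufs5, an accessory subunit of complex I, was the single member that passed the test, and it rose in Bcl6 cKO. Its signal was 9.53, 9.51, 9.50 and 9.58 in Bcl6 cKO, against 9.17, 9.06, 8.81 and 8.75 in WT. All 4 Bcl6 cKO arrays lay above all 4 WT arrays, and the spread was wider in WT than in Bcl6 cKO. The means were 9.53 ± 0.036 in Bcl6 cKO and 8.95 ± 0.20 in WT (SD, n = 4 each), a difference of 0.58 (SE 0.0874, 95% confidence interval 0.39 to 0.78), or 1.497-fold. In limma over all genes the adjusted p was 0.0353, beside 0.105% of all genes called higher, 0.115% called lower and 0.221% called in either direction. In these bulk samples a larger share of cells of a type and more RNA per cell cannot be told apart.

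The call for Ndufs5 was close to the threshold. It held without Bcl6 cKO replicate 1 (adjusted p = 0.0416) and without WT replicate 1 (adjusted p = 0.0256), and missed the threshold when any of the other 6 arrays was left out (limma adjusted p of 0.0552 to 0.137), with differences of 0.52 to 0.66 over all 8 fits. With sex in the fit the difference was 0.65 (limma adjusted p = 0.0809). It was 0.52 between the arrays with high Y signal and 0.78 between those with low Y signal, with limma adjusted p-values of 0.995 and 0.0515. Each of these last comparisons rests on a lone array in 1 group. A second cluster shared by Ndufs5 and its pseudogene Ndufs5-ps, not used for the member, read 9.07, 9.25, 8.94 and 8.98 in Bcl6 cKO, against 8.98, 9, 8.86 and 8.43 in WT. There the groups overlapped, with a difference of 0.24 (limma unadjusted p = 0.0977).

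Promoters are shown for the 3 members with the smallest p-values, Ndufs5, Sdhb and Ndufb8, the first of which passed the test. Each line is the 250 bases before the gene's start, from RefSeq on GRCm38.p6: Ndufs5 at chr4:123718187-123718436 (minus strand), Sdhb at chr4:140961021-140961270 (plus strand) and Ndufb8 at chr19:44555443-44555692 (minus strand). Capitals mark a match to GCGCA, any base N and GCGC in a row, the core of sites bound by the respiratory gene regulator NRF1, or to CCGGAAG, a core of ETS family sites such as those of GABP.
Ndufs5: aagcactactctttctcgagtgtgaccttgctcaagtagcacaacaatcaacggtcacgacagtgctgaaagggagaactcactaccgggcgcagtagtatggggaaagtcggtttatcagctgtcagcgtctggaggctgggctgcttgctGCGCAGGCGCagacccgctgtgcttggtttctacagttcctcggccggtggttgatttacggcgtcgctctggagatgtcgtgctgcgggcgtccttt
Sdhb: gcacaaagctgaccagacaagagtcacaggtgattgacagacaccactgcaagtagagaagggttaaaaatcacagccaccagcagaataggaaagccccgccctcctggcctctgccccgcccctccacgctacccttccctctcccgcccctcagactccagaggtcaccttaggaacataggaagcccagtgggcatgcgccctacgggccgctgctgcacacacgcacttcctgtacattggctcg
Ndufb8: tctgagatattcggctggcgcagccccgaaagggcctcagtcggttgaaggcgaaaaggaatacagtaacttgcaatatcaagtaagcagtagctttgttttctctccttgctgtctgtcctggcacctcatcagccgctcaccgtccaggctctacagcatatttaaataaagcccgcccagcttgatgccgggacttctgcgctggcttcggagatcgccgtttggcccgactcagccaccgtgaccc
Ndufs5 holds an NRF1 match that starts 98 bases before its start. Sdhb has its ETS match at base 7 after the start, outside the printed stretch, and the Ndufb8 window holds neither motif. Both motifs were searched on both strands over 250 bases before and 50 after the start.

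Promoter windows matched 73 of the 89 members. The NRF1 motif was found in 18 of them (24.7%), against 7.87% of 15563 tested genes with a window and 4.6% of all 32851 windows. The ETS motif was found in 18 of 73 (24.7%), against 13.6% of tested genes and 8.86% of all windows. A gene was counted when any of its windows held the motif, while the shares of windows count each window singly. The shares of genes and of windows are therefore unlike measures. Members with the NRF1 motif had a median difference of 0.0538 (n = 18) and those without it 0.0475 (n = 55). For the ETS motif the medians were 0.0462 with it and 0.05 without it. A match describes the letters of the window and is no evidence of binding, and its absence says only that these letters are not there.

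Across the 89 members, 68 differences were above 0, 17 below 0 and 4 at 0. The median difference was 0.0475 (25th to 75th percentile 0.005 to 0.0925, range -0.13 to 0.58), beside 0.0025 over all genes, whose 25th to 75th percentile ran from -0.0525 to 0.0575. The median standard error of a single member's difference was 0.0631. At an unadjusted limma p under 0.05, 7 members were higher (7.87%, beside 4.67% of all genes) and 1 was lower (1.12%, beside 6.17%). Groups did not overlap for 6 members that were higher (6.74%, beside 2.33% of all genes) and for 1 that was lower (1.12%, beside 3.64%). For the 88 members that did not pass, the 95% confidence intervals lay within -0.27 (Ndufaf3) and 0.46 (Uqcr11), each for a single gene and not adjusted.

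**Figure D1:**
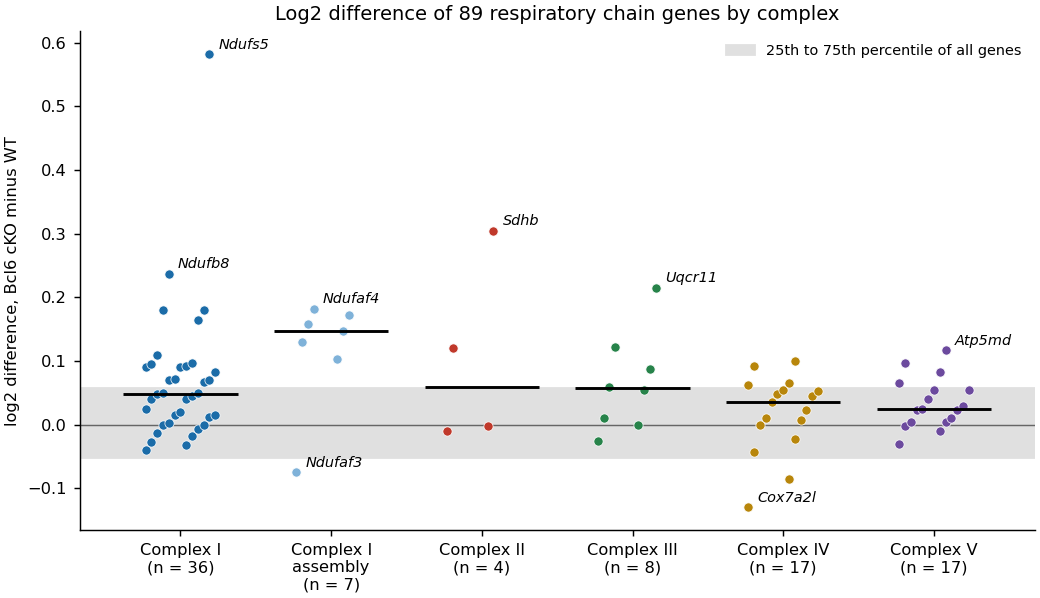
Log2 difference (Bcl6 cKO minus WT) of each of the 89 members, by complex, with a bar at the median of each complex and a shaded band from the 25th to the 75th percentile of all genes (-0.0525 to 0.0575). Ndufs5 stands at 0.58 above all others, followed by Sdhb at 0.305.

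Complex I, with 36 of the 89 members, accounted for 5 of the 7 that were higher at an unadjusted p under 0.05. At that limma p 4.67% of all genes were higher. The complex I genes had 28 differences above 0 and 6 below, with a median of 0.0488, beside 0.0475 over all members. Ndufb8, an accessory subunit of the membrane arm, had signals of 10.55, 10.57, 10.64 and 10.63 in Bcl6 cKO, against 10.41, 10.36, 10.41 and 10.26 in WT. Every Bcl6 cKO array lay above every WT array, and the difference of 0.24 (SE 0.0527, 1.18-fold) had a limma adjusted p of 0.118. Ndufa12, a further accessory subunit, read 11.11, 11.13, 11.10 and 11.12 in Bcl6 cKO, against 10.99, 10.86, 10.99 and 10.96 in WT. The groups were again apart, and the difference of 0.165 had a limma adjusted p of 0.230.

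The other complex I genes at an unadjusted p under 0.05 fall outside the rule for named genes and were picked after their values were seen. Ndufb5, an accessory subunit of the membrane arm, read 11.45 to 11.50 in Bcl6 cKO and 11.32 to 11.40 in WT, groups that did not overlap, with a difference of 0.11 (limma adjusted p = 0.406). Ndufs6, a zinc-binding accessory subunit, had a difference of 0.18 (limma adjusted p = 0.441), or 0.11 without WT replicate 4, and overlapping groups. The core subunits, most of which carry the flavin or iron-sulfur clusters, had differences between -0.0075 and 0.09 in the 6 described here, with a median of 0.0325, beside 0.05 for the 30 accessory genes; no test of that difference was made. None of the 6 reached an unadjusted p under 0.05. Ndufs1, the largest core subunit, had a difference of 0.09 (0.0492 without WT replicate 4), and Ndufv1, which binds NADH, one of 0.025 (-0.025 without it). Ndufa4, named for complex I although its product is now placed in complex IV, had a difference of -0.0325, and its relative Ndufa4l2 one of 0. Ndufa4l2 averaged 6.945 in both groups, within the 4.98 to 7.52 spanned by the B cell markers in Bcl6 cKO. Ndufa4l2 was thus not shown to stand above background.

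The 7 Ndufaf assembly factors of complex I help build the enzyme and are not part of it. They had the highest median difference among the 6 groups, 0.148, with 6 of 7 above 0. Ndufaf4, Ndufaf2 and Ndufaf6 had differences of 0.18, 0.17 and 0.13, with limma adjusted p-values of 0.510, 0.551 and 0.557. Without WT replicate 4 these 3 differences were 0.0933, 0.0742 and 0.0608. Ndufaf3 was the exception at -0.075 (-0.12 without that array). None of the 7 reached an unadjusted p under 0.05. The 9 measured complex I assembly factors with other symbols did not share that median. They had 5 differences above 0 and 4 below, with a median of 0.0225, or -0.00917 without WT replicate 4. The smallest p among them was that of Timmdc1, with a difference of 0.16 (limma adjusted p = 0.436).

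Complex II held the second-ranked member by p. Sdhb, its iron-sulfur subunit, had signals of 11.50, 11.54, 11.57 and 11.64 in Bcl6 cKO, against 11.38, 11.33, 11.14 and 11.18 in WT. The groups did not overlap, and the means were 11.56 ± 0.059 in Bcl6 cKO and 11.26 ± 0.12 in WT (SD, n = 4 each). The difference of 0.305 (SE 0.0647, 95% confidence interval 0.16 to 0.45, 1.24-fold) had a limma adjusted p of 0.103, and over all alternatives run passed only with trend and robust moderation of the variance (0.0490). The other 3 subunits had differences of -0.0025 for the flavoprotein Sdha, -0.01 for the membrane anchor Sdhc and 0.12 for the second anchor Sdhd. Sdhd had a limma adjusted p of 0.695, and its difference was 0.0342 without WT replicate 4.

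**Figure D2:**
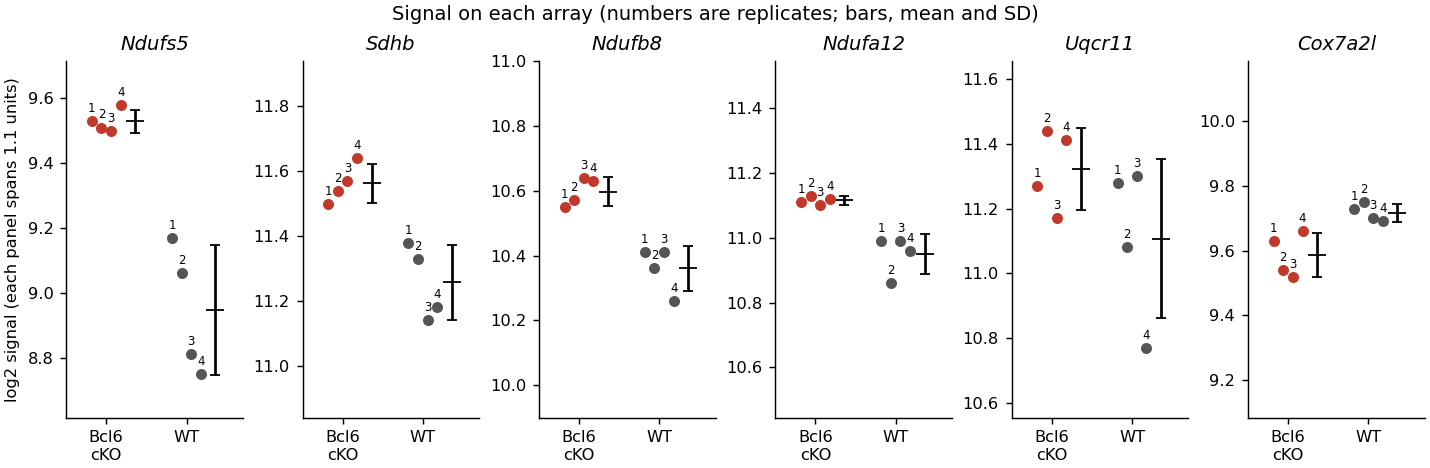
Log2 signal of 6 members on each array (numbers are replicates), with the mean and SD of each group, every panel spanning 1.1 log2 units. Bcl6 cKO lies above WT without overlap for Ndufs5, Sdhb, Ndufb8 and Ndufa12 and below it for Cox7a2l, while the groups overlap for Uqcr11.

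In complex III 6 of 8 genes had differences above 0 and 1 below, with a median of 0.0575 and none at an unadjusted p under 0.05. Uqcr11, a small structural subunit, read 11.27, 11.44, 11.17 and 11.41 in Bcl6 cKO, against 11.28, 11.08, 11.30 and 10.77 in WT. The groups overlapped, and WT replicate 4 was the lowest array: the difference was 0.215 with it (limma adjusted p = 0.538) and 0.10 without it. Uqcrq, a further small subunit, had a difference of 0.12 (limma adjusted p = 0.643), or 0.0408 without that array. The catalytic Rieske protein gene Uqcrfs1 and the core proteins Uqcrc1 and Uqcrc2 had differences of 0.06 (0.00917 without that array), 0.01 and 0.

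Complex IV had 12 differences above 0 and 4 below among 17 genes, with a median of 0.035. Its only gene at an unadjusted p under 0.05 was lower in Bcl6 cKO, 1 of 17, beside 6.17% of all genes lower at that limma p. Cox7a2l, also called SCAF1, which joins complexes III and IV in supercomplexes, read 9.63, 9.54, 9.52 and 9.66 in Bcl6 cKO, against 9.73, 9.75, 9.70 and 9.69 in WT. All Bcl6 cKO arrays lay below all WT arrays, and the difference of -0.13 had a limma adjusted p of 0.378. Cox5b, the zinc-binding nuclear subunit, read 12.20, 12.21, 12.23 and 12.26 in Bcl6 cKO, against 12.17, 12.15, 12.15 and 12.03 in WT. The groups did not overlap, and the difference of 0.10 had a limma adjusted p of 0.518. Among all genes, 2.33% were higher and 3.64% lower without overlap. Cox5a had a difference of 0.0925 (limma adjusted p = 0.638), or 0.04 without WT replicate 4.

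Several complex IV subunits have isoforms used in particular tissues. The 10 widely expressed genes had a median difference of 0.0488, with 9 above 0, and the 7 muscle, lung or testis isoforms had a median of 0, with 3 above 0 and 3 below. Without WT replicate 4 the order turned, with medians of 0.0267 for the widely expressed genes and 0.0325 for the isoforms, and no test of the difference was made. Cox4i1, the general form of subunit 4, had a difference of 0.055 (0.0133 without that array), and the lung form Cox4i2 one of 0. Cox7b2, a testis form, averaged 5.13 in Bcl6 cKO and 5.21 in WT, within the 4.58 to 5.83 spanned by Y-linked genes on the arrays with low Y signal, so it was not shown to stand above background. In Bcl6 cKO the 5 measured B cell markers averaged 4.98 (Ms4a1) to 7.52 (Cd79b). Cox8b, Cox7a1 and Cox6b2 averaged 6.975, 7.33 and 7.42 there, within that range, and Cox8c 7.56, close above it. These genes too were not shown to stand above background, and its part in the isoform medians was not tested.

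Complex V had 14 differences above 0 and 3 below among 17 genes, with a median of 0.025. Atp5md, a small membrane subunit that links ATP synthase dimers, was its only gene at an unadjusted p under 0.05. That is 1 of 17 genes, beside 4.67% of all genes higher at that limma p. Atp5md read 13.04, 13.04, 13.01 and 12.92 in Bcl6 cKO, against 12.87, 12.83, 12.90 and 12.94 in WT. The highest WT array exceeded the lowest Bcl6 cKO array, and the difference of 0.12 had a limma adjusted p of 0.428. Of the catalytic F1 head, Atp5a1 and Atp5b, the alpha and beta subunits, had differences of -0.01 and 0.01, and Atp5c1, the central stalk, one of 0.0975 (limma adjusted p = 0.539). The peripheral stalk gene Atp5o had one of 0.0825 (limma adjusted p = 0.736), or 0.0408 without WT replicate 4. Atp5g1, Atp5g2 and Atp5g3, 3 genes for 1 mature c-ring protein, had differences of 0.055, 0.005 and 0.055, and of 0.0167, -0.0133 and -0.01 without that array.

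WT replicate 4 was the lowest of the 8 arrays for 59 of the 89 members (66.3%), beside 21.8% of all genes. Its median deviation from each gene's median was -0.155 over the members and 0.005 over all genes, and it was lowest in the assembly factors (-0.295), complex II (-0.208) and complex I (-0.193), less so in complexes III (-0.133), V (-0.065) and IV (-0.04). Ndufa1, a small membrane subunit of complex I chosen after its values were seen, read 9.45, 9.47, 9.40 and 9.43 in Bcl6 cKO, against 9.57, 9.53, 9.41 and 8.86 in WT. Apart from WT replicate 4 its groups overlapped. None of the 7 tissue or testis isoforms of complex IV was lowest on that array, where Cox4i2, Cox7a1 and Cox8c had their highest signals. Cox7a1 and Cox8c were among the isoforms not shown to stand above background.

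**Figure D3:**
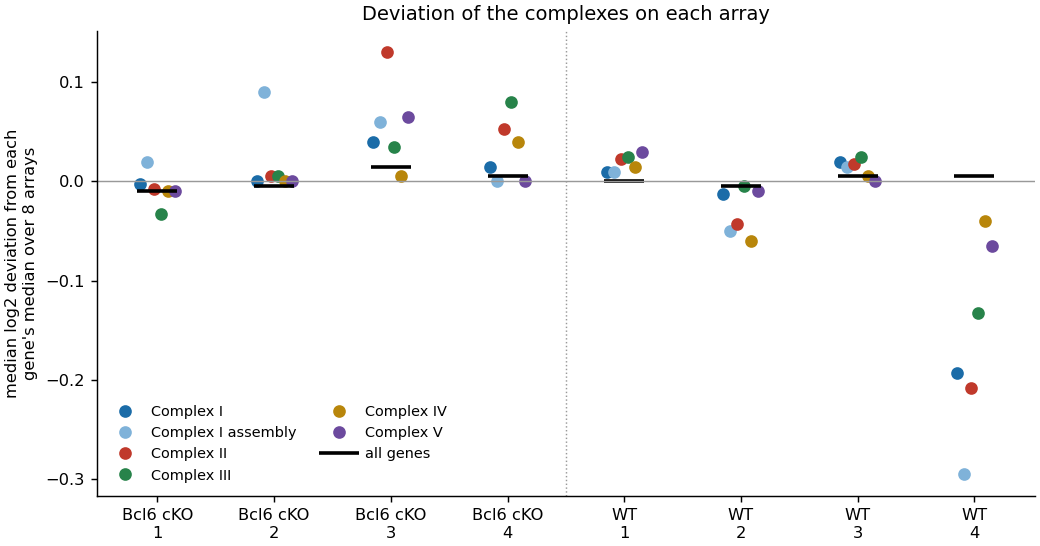
Median log2 deviation of each complex from the gene medians over the 8 arrays, by array, with a black bar for all genes. WT replicate 4 has the lowest point for 5 of the 6 groups, down to -0.295 for the assembly factors, while its bar for all genes sits at 0.005. For complex IV the lowest point is that of WT replicate 2 (-0.06).

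Leaving out WT replicate 4 lowered the median difference of the members to 0.0117, beside 0.00667 over all genes, and left 50 differences above 0 and 38 below. At an unadjusted limma p under 0.05, 5 members were then higher (5.62%, beside 5.13% of all genes) and 1 lower (1.12%, beside 6.87%). By complex the medians without it were 0.00833 for complex I, 0.0642 for its assembly factors, 0.0146 for complex II, 0.000417 for complex III, 0.03 for complex IV and -0.00667 for complex V. The differences of Ndufs5, Sdhb, Ndufb8, Ndufa12 and Cox7a2l were then 0.52, 0.28, 0.20, 0.17 and -0.14.

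**Figure D4:**
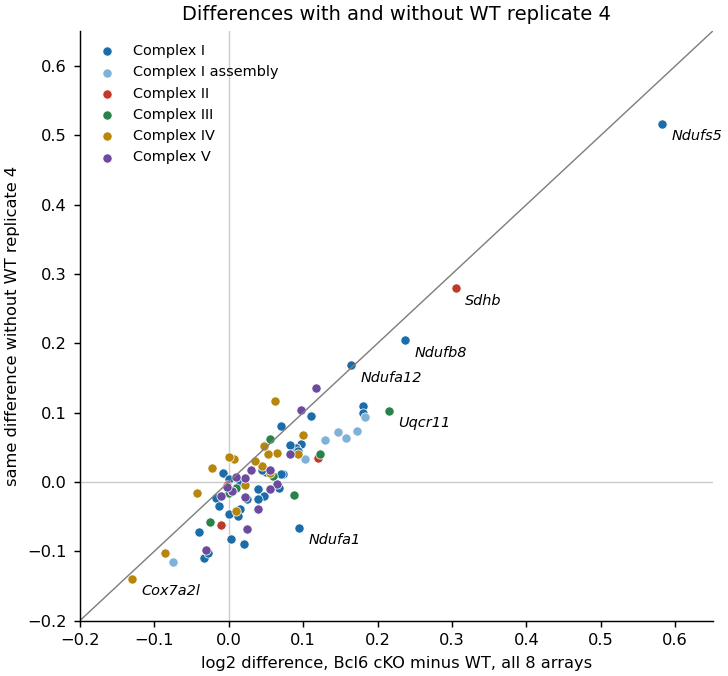
Log2 difference of each member with all 8 arrays (horizontal) and without WT replicate 4 (vertical), coloured by complex. Ndufs5 keeps 0.52 of 0.58, Sdhb 0.28 of 0.305 and Cox7a2l stays at -0.14 and the members' median is 0.0117.

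WT replicate 4 was the only WT array with low Y signal, so sex and that array cannot be told apart within WT. With sex in the fit the members' median was 0.0733, 14 members were higher at an unadjusted limma p under 0.05 (15.7%, beside 4.78% of all genes) and 0 lower (beside 5.19%), and none passed the threshold. Within the arrays with high Y signal (Bcl6 cKO replicate 1 against WT replicates 1 to 3) the median was -0.0133 and 1 member was higher at an unadjusted p under 0.05 (1.12%, beside 1.67% of all genes) and 0 lower (beside 2.61%). Within the arrays with low Y signal (Bcl6 cKO replicates 2 to 4 against WT replicate 4) the median was 0.173 and 42 members were higher (47.2%, beside 12.1%) and 0 lower (beside 7.55%). The difference of the genotype effect between the high and low Y arrays passed limma's threshold for 0 members, and 24 had an unadjusted p under 0.05 (27.0%, beside 11.8% of all genes).

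Genes that act with the chain were compared in the same fit, and none passed the threshold. Cytochrome c (Cycs), the carrier between complexes III and IV, read 13.30 in Bcl6 cKO and 13.17 in WT on average, without overlap, a difference of 0.125 (limma adjusted p = 0.382). The 32 measured assembly factors of complexes II to V had 21 differences above 0 and 11 below, with a median of 0.0288, which was -0.0163 without WT replicate 4, the lowest array for 24 of them. Uqcc3, which assembles complex III, had a difference of -0.265 (limma adjusted p = 0.259). Of the 13 subunits encoded in mitochondrial DNA, COX2 and ND3 were measured, with differences of 0.05 and 0.0675, and WT replicate 4 was the lowest array for neither. The citric acid cycle list had 10 of 13 above 0, with a median of 0.04, and the ubiquinone synthesis list 7 of 9, with a median of 0.035. Without WT replicate 4 these medians were 0.000833 and -0.00417. The smallest p of the citric acid cycle list was that of Idh3a, with a difference of 0.14 (limma adjusted p = 0.470). In the ubiquinone list it was that of Coq9, with -0.11 (limma adjusted p = 0.616). Among regulators of respiratory genes, Myc had a difference of 0.17 (limma adjusted p = 0.350) and Nrf1 one of 0. In the mitochondrial DNA list, Polg2, the accessory subunit of the DNA polymerase, had one of -0.23 (limma adjusted p = 0.308), and Tfam, which packages that DNA, one of 0.15. Tfam, Nrf1 and COX2 fall outside the rule for named genes. The proliferation list had 9 of 9 above 0, with a median of 0.445 and 0.373 without WT replicate 4. Its smallest p was that of Top2a, with a difference of 0.445 (limma adjusted p = 0.226).

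The 77 mitochondrial ribosomal protein genes, which translate the subunits encoded in mitochondrial DNA, were also low on WT replicate 4. They had 73 differences above 0 and 4 below with a median of 0.0875, or 0.0425 without WT replicate 4, which was the lowest array for 70 of them (90.9%). No test of the difference between these genes and the respiratory chain was made.

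The members lie on 19 chromosomes. Ndufs5 and Sdhb are both on chromosome 4, with 269 tested genes between them. Of the 10 tested genes on each side of Ndufs5 none passed limma's threshold, 1 had groups that did not overlap, and the differences ran from -0.172 to 0.225. Around Sdhb none of 20 passed, 3 had groups that did not overlap, and the differences ran from -0.178 to 0.325. Of all genes 0.221% passed, and groups did not overlap for 2.33% that were higher and 3.64% that were lower. On chromosome 16, which carries Bcl6, 1.7% of 648 genes were called, beside 0.221% of all genes and 0.52% of 1154 on chromosome 4. The chromosome 16 members Atp5j and Atp5o, 286 and 362 tested genes from Bcl6, were not called. Ndufa1, Ndufb11 and Cox7b are on the X chromosome and had a median difference of 0.035.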

How the data were processed

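Gene expression was measured on 8 arrays, 4 Bcl6 cKO and 4 WT. The deposited values are log2 signals, one for each transcript cluster on each array; the authors used RMA and Partek, per the submitters' processing notes, with versions and genome build not given in the sources used here. RMA brings arrays to 1 distribution and compresses differences of dim genes. Of 35556 clusters, the platform annotation gives 1 symbol to 21789, several to 1621 and none to 12146. The brightest cluster stood for each of 999 genes with several, which left 19938 genes. For 17 members with several clusters, the differences were within 0.072 of each other.

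All genes were fitted with limma 3.58.1 in R 4.3.3 (lmFit, eBayes without trend, no covariate, no filter), with Benjamini-Hochberg adjustment over all genes at 0.05. The steps were tested on simulated data, in which each gene had the same spread on all arrays. There 25.2% of true differences of 0.25 were called, and 93.8% of those of 0.5. A member that did not pass may thus still differ by a small amount. Named genes are those past the threshold, the 3 smallest p per complex and in the assembly factors, core subunits, isoform sets and the smallest p of each list. Members and lists were chosen with earlier results of these data known. Sex was read from Y-linked genes. Promoters came from RefSeq. Arrays have no depth, so their number limits the precision.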

Additional observations from a re-analysis of the deposited data

Results flagged for a closer look

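Values far from the rest of their group were sought in each named member and group of 4 arrays, by Dixon's ratio at its 95% critical value. Chance alone marks about 5% of such groups; 6 of 86 named groups were marked, and 13 of 178 (7.30%) over all members. In 7 of the 13 the value was the lowest signal of WT replicate 4. Among the named members WT replicate 4 was low for Cox5b (12.03), Cox8a (12.27) and Uqcrfs1 (9.31). The other marked values were a high one for Atp5a1 on Bcl6 cKO replicate 3 (12.69), a low one for Cox8c on Bcl6 cKO replicate 2 (7.41) and a high one for Cox7b2 on WT replicate 1 (5.38), a gene within the background range.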

How the results depend on the processing

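The median difference of the members was 0.173 within the low Y arrays and 0.0117 to 0.0658 when each array was left out in turn, the lowest without WT replicate 4; within the high Y arrays it was -0.0133, and with array weights 0.022 (59 above 0 and 30 below). Ndufs5 was the only member past the threshold in the fit reported; the members past it numbered 2 with trend and robust variance moderation (Sdhb was added), 0 with sex in the fit and within either set of Y arrays, and 0 to 1 when leaving out an array. Members higher at an unadjusted p under 0.05 numbered 4 with median centring, 14 with sex in the fit, 1 within the high Y arrays, 42 within the low Y arrays and 4 to 9 leaving out an array; those lower numbered 0 with sex in the fit and within either set, and 0 to 1 leaving out an array. Genes past the threshold numbered 44, against 91 with trend and robust moderation, 80 with array weights, 67 and 75 with the filters on signal at the 30th percentile and the median, 93 with a term for odd or even number, 10 with sex in the fit, 0 within the high Y arrays (852 at an unadjusted limma p under 0.05) and 11 to 139 leaving out an array. They split 21 higher and 23 lower, 19 and 13 after median centring, 22 and 14 after quantile normalization, 30 and 61 with trend and robust moderation, 29 and 51 with array weights, 33 and 60 with the odd or even term, and 39 and 100 without Bcl6 cKO replicate 1. The cause was not tested. Same-numbered samples correlated at 0.0731, 0.206, 0.203 and 0.205 in their deviations, beside highest correlations with another number of 0.186, 0.097, 0.178 and -0.034. In pairs 2 to 4 the samples thus correlated best with their own number, a hint from the data, but not every pair exceeded 0.1 and the labels give no shared source, so the samples were taken to share only a number. With the replicate number as a block, 0 members and 35 genes passed, and Ndufs5 had a limma adjusted p of 0.0542. Of 853 checks of 43 named members, 0 reversed a called value, 10 lost the call of Ndufs5 and 1 added Sdhb. Only a member called in 1 of the 2 fits could count as reversed. The sign of the difference changed, or moved to or from 0, in 108 checks. These fell on 26 members, whose differences in the fit reported were at most 0.122 in size.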
